A study of Mus musculus with 4 samples.

Results

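The immune cells of the CCR2 KO muscularis were followed from the acute phase (24 h) to the recovery phase (72 h) after surgical handling of the small intestine. All cells of the 2 CCR2 KO libraries were taken, without any selection on expression, which gave 2822 of the 5811 cells of the series, 1774 at 24 h and 1048 at 72 h. From the muscularis, the muscle coat around the gut, CD45+ cells (leukocytes) had been sorted. CCR2 KO mice (CCR2-/-, strain B6.129S4-Ccr2tm1Ifc/J) lack the receptor in every cell of the body, and the WT libraries at the same times came from C57BL/6J mice. Intestinal manipulation was common to all 4 libraries, as were an age of 12 weeks, female sex and the CD45+ gate. Each library pooled 3 to 4 mice, so that single mice could not be told apart. With 1 library per group there were no replicates and no test, and every interval below is a 95% interval that covers counting error only.

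Classical monocytes depend on the chemokine receptor CCR2 to leave the bone marrow, whereas neutrophils are drawn out of marrow and blood mainly through CXCR2 and its ligands. In an injured gut muscle layer, neutrophils arrive first and die or leave within days, while monocytes become macrophages (Mφs) that clear debris and present antigen. The question that the KO course addresses is what the infiltrate becomes, and which genes it expresses, when few monocytes can enter.

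CD45, encoded by Ptprc, was detected in 1638 of 1772 cells at 24 h and in 960 of 1042 cells at 72 h. Cells led by stromal, glial or muscle genes without Ptprc, 2 at 24 h and 6 at 72 h, were set aside first. The 2 libraries shared 0 cell barcodes, and each shared at most 1 with a WT library. Cells at 72 h gave more UMIs, with a median of 3281.5 unique molecular identifiers (UMIs) per cell at 24 h and 4990.5 at 72 h, and the median mitochondrial share went from 0.469% to 2.04%. Ribosomal protein genes took 9.36% of all UMIs at 24 h and 13.9% at 72 h. Levels are given in CPM, which counts the UMIs of a gene in 1000000 UMIs of the class or library named. Summed markers of mast cells or basophils were at 39.0 and 7.69 CPM, and those of plasma cells at 2852 and 1733 CPM. Beyond the alternative settings described further below, the part of depth and RNA quality in the results was not tested.

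Ccr2, the gene that was targeted (ENSMUSG00000049103.14, plus strand of chromosome 9, 124101950 to 124113557 on GRCm38), was low in both KO libraries without being absent. Over all cells it was at 47.4 CPM (43.3 to 51.8) at 24 h and 54.4 CPM (49.8 to 59.2) at 72 h, compared with 720.3 CPM (709 to 732) and 923 CPM (908 to 937) in WT. Within the KO libraries it was at 95.2 and 84.1 CPM in monocyte/Mφ-like cells, and at 204 and 209 CPM in NK cell-like cells. The intervals of the 2 times overlapped. A 3' UMI count cannot show whether these transcripts carry the deletion.

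The makeup of the infiltrate turned over between the 2 times. Neutrophil-like cells, the first responders of acute inflammation, made up 72.9% (70.7 to 74.9) of cells at 24 h and 20.8% (18.4 to 23.4) at 72 h, a difference of -52.03 percentage points (-55.1 to -48.7). Their place was taken mostly by a class of granulocytes led by Siglecf, which numbered 49 cells or 2.77% (2.05 to 3.64) at 24 h and 370 cells or 35.5% (32.6 to 38.5) at 72 h. Dendritic cell-like cells, the main antigen-presenting class, went from 3.61% (2.79 to 4.59) to 13.1% (11.2 to 15.4) and T cell-like cells from 2.65% (1.96 to 3.51) to 7.39% (5.88 to 9.15). The gain of T cell-like cells, 4.74 percentage points (3.06 to 6.60), was 1.53 points with at most 5% mitochondrial UMIs per cell and 2.004 points with thinning to 1000 UMIs before clustering. Monocyte/Mφ-like cells kept a share close to constant, with 12.4% (10.9 to 13.98) and 14.01% (11.96 to 16.3), a difference of 1.65 percentage points (-0.899 to 4.32) whose interval includes 0. This near constancy rested on cells with many mitochondrial UMIs: with at most 5% such UMIs the class held 183 of 1644 cells at 24 h and 49 of 788 at 72 h, a difference of -4.91 percentage points (-7.10 to -2.53). Shares add up to 100%, so that fewer cells of 1 class raise the others, and the number of cells per mouse was not measured.

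**Figure D1:**
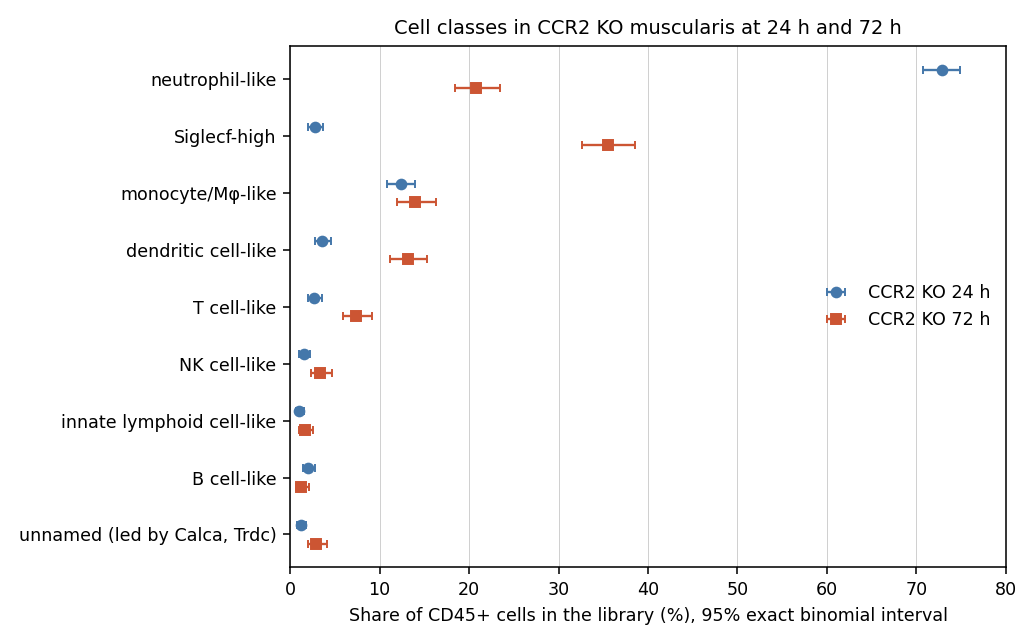
Share of CD45+ cells in each class (horizontal axis, percent) in the CCR2 KO library at 24 h (blue circles) and at 72 h (orange squares), with exact binomial intervals of counting error. Neutrophil-like cells go from 72.9% to 20.8% and Siglecf-high cells from 2.77% to 35.5%, whereas the intervals of monocyte/Mφ-like cells overlap.

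The smaller lymphoid classes were counted with little precision. NK cell-like cells, cytotoxic innate lymphocytes, numbered 27 at 24 h and 35 at 72 h, or 1.52% (1.01 to 2.21) and 3.36% (2.35 to 4.64). Innate lymphoid cell-like cells numbered 18 and 17, and B cell-like cells 36 and 13, or 2.03% (1.43 to 2.80) and 1.25% (0.666 to 2.12). A further cluster led by Calca, Cd163l1 and Trdc, the constant segment of the T cell receptor delta chain, held 21 and 30 cells and was given no name. The UMI content of the libraries moved with the classes, since cells differ in size. Neutrophil-like cells held 39.2% of all UMIs at 24 h and 11.5% at 72 h, while dendritic cell-like cells held 13.2% and 39.8%. Sums over all cells therefore weigh dendritic cells far more at 72 h than at 24 h.

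Siglecf encodes a sialic acid-binding receptor of the mouse that marks eosinophils and is also found on some tissue neutrophils. In the Siglecf-high class it was at 378 CPM at 24 h and 555 CPM at 72 h, and it was at 52.9 and 50.6 CPM in neutrophil-like cells. Most eosinophil genes that were measured were at or near 0 there, while Epx, Prg3 and Gata1 were not analysed here. Of the 6 eosinophil markers measured, only Siglecf reached 20 CPM in this class, while Il5ra, the receptor for the eosinophil growth factor IL-5, and the granule genes Prg2, Ear1 and Ear6 were at 0 UMIs at both times. Ccr3, the eotaxin receptor, was at 0 and 1.74 CPM. The neutrophil genes were present: the growth factor receptor gene Csf3r was at 1595 CPM at 24 h and 1267 CPM at 72 h, Cxcr2 at 970.2 and 511 CPM and the gelatinase gene Mmp9 at 2664 and 3625 CPM. The class is therefore called by its leading gene here and was given neither the name of eosinophil nor of neutrophil.

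With every cell reduced at random to 1000 UMIs (thinned), Siglecf was seen in 13 of 47 cells (27.7%, 15.6 to 42.6) of the Siglecf-high class at 24 h and in 129 of 345 cells (37.4%, 32.3 to 42.7) at 72 h. In neutrophil-like cells it was seen in 75 of 1274 cells (5.89%, 4.66 to 7.32) and 8 of 212 cells (3.77%, 1.64 to 7.30). As a measure of free RNA in the droplets, Siglecf was seen in 3 of 128 cells (2.34%, 0.486 to 6.70) of the monocyte/Mφ-like class and in 3 of 137 cells (2.19%, 0.454 to 6.27) of the dendritic cell-like class at 72 h. At 24 h it was seen in 0 of 214 cells (0%, 0 to 1.71) and 0 of 63 cells (0%, 0 to 5.69) of these classes, where 0 cells allow a share of up to 1.40% and 4.76%. The share in neutrophil-like cells was above the monocyte/Mφ-like background at 24 h, and its interval overlapped the background at 72 h. The high share in the Siglecf-high class follows from how that class was formed.

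Within the Siglecf-high class the neutrophil program was partly lower at 72 h. Of 6262 genes at 20 CPM or more, 20.5% were at least 2-fold higher and 5.35% at least 2-fold lower at 72 h, and the 49 cells of the 24 h library leave wide counting errors. Of 17 neutrophil granule and maturation genes, 3 were at least 2-fold higher and 5 at least 2-fold lower. Among the lower ones were Lcn2, which encodes an iron-trapping granule protein, at 255 CPM at 24 h and 45.2 CPM at 72 h, and G0s2, a regulator of lipid breakdown, at 2154 and 845 CPM. The higher ones were Retnlg (16.4 and 45.2 CPM), Ltf (8.22 and 87.0 CPM) and Stfa2l1 (32.9 and 89.6 CPM). At 24 h these rested on 2, 1 and 4 UMIs. Of the gene pair S100a8 and S100a9, which encodes calprotectin, S100a8 was lower, at 12892 and 8472 CPM, and S100a9 was level, at 8296 and 8497 CPM. Saa3, an acute-phase gene, was at 238 and 37.4 CPM and Il23a, a subunit of interleukin 23, at 181 and 33.9 CPM. The metallothionein gene Mt1 was on the higher side, with 4 UMIs (32.9 CPM) at 24 h and 358 UMIs (311 CPM) at 72 h. Il1b, the gene of interleukin 1 beta, stayed at a high level in this class, with 17702 CPM at 24 h and 14898 CPM at 72 h.

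Over all cells, 6464 genes were at 20 CPM or more in at least 1 KO library. Of these, 363 (5.62%) were at least 2-fold higher and 311 (4.81%) at least 2-fold lower at 72 h, with the median of all genes at 0.21 on the log2 scale. A scaling by trimmed means (TMM), which lowers every log2 ratio by 0.30, gave 171 and 536 genes, so that 53.9% of called genes were higher in the first case and 24.2% in the second. The class makeup alone was taken as the 24 h level of each class weighted by its UMIs at 72 h. It would have moved 55 of the 363 higher genes and 56 of the 311 lower genes by 2-fold. By any amount, it would have moved 341 of the higher and 305 of the lower genes in the observed direction. Its median log2 shift was 0.64 for the higher genes, where 1.28 was observed. For the lower genes it was -0.73, where -1.33 was observed. In these sums, fewer cells of a class and less RNA of a gene per cell cannot be told apart, and levels within classes are given further below.

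The genes with the largest difference in the upward direction belonged to dividing cells and to dendritic cells. Ube2c, the ubiquitin-conjugating enzyme of mitotic exit (chromosome 2, 164769898 to 164778822, plus strand), was at 4.80 CPM at 24 h and 139 CPM at 72 h, a log2 ratio of 4.59 (4.45 to 5.29). Further cell division genes were Ccnb2 (3.84 and 50.5 CPM), which encodes cyclin B2, the survivin gene Birc5 (11.1 and 96.5 CPM), the mitotic kinase gene Cdk1 (9.02 and 53.01 CPM) and Stmn1 (43.6 and 216 CPM), which encodes a tubulin-binding protein. The 24 h levels of these 5 genes lay between 3.84 and 43.6 CPM. Xcr1, the chemokine receptor of cross-presenting dendritic cells (minus strand of chromosome 9, 123852315 to 123862029), was at 3.17 CPM in 5 cells and at 63.7 CPM in 42 cells. Itgae, which encodes the integrin CD103, was at 29.3 and 129 CPM, and Flt3, the receptor for the dendritic cell growth factor, at 12.3 and 55.1 CPM. The other genes at the head of the list were Sept3, Igfbp4, Hfe and Ear2, with log2 ratios between 2.19 and 3.98. Ear2 belongs to the eosinophil-associated ribonucleases and was at 11.6 and 56.3 CPM. It was at 74.7 and 123 CPM in dendritic cell-like cells and at 3.58 and 26.2 CPM in monocyte/Mφ-like cells.

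In the downward direction stood secreted factors of acute inflammation. Inhba, a subunit of activin, was at 75.98 CPM at 24 h and 3.33 CPM at 72 h, a log2 ratio of -4.15 from 792 and 32 UMIs. Saa3 was at 208 and 16.2 CPM, the matrix protein gene Thbs1 at 1124 and 124 CPM, the chitinase-like gene Chil3 at 382 and 42.8 CPM and the stress cytokine gene Gdf15 at 64.5 and 8.32 CPM. The value of Saa3 rested on the removal of cells led by non-immune genes: with them its log2 ratio was 0.03 in place of -3.60. Spp1, which encodes osteopontin, was at 1886 and 283 CPM, and the fatty acid enzyme gene Acot1 at 50.4 and 7.07 CPM. The unannotated transcript Gm13822 was at 92.1 and 10.7 CPM. The remaining 4 of the 12 were chemokine genes and are given with their families.

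**Figure D2:**
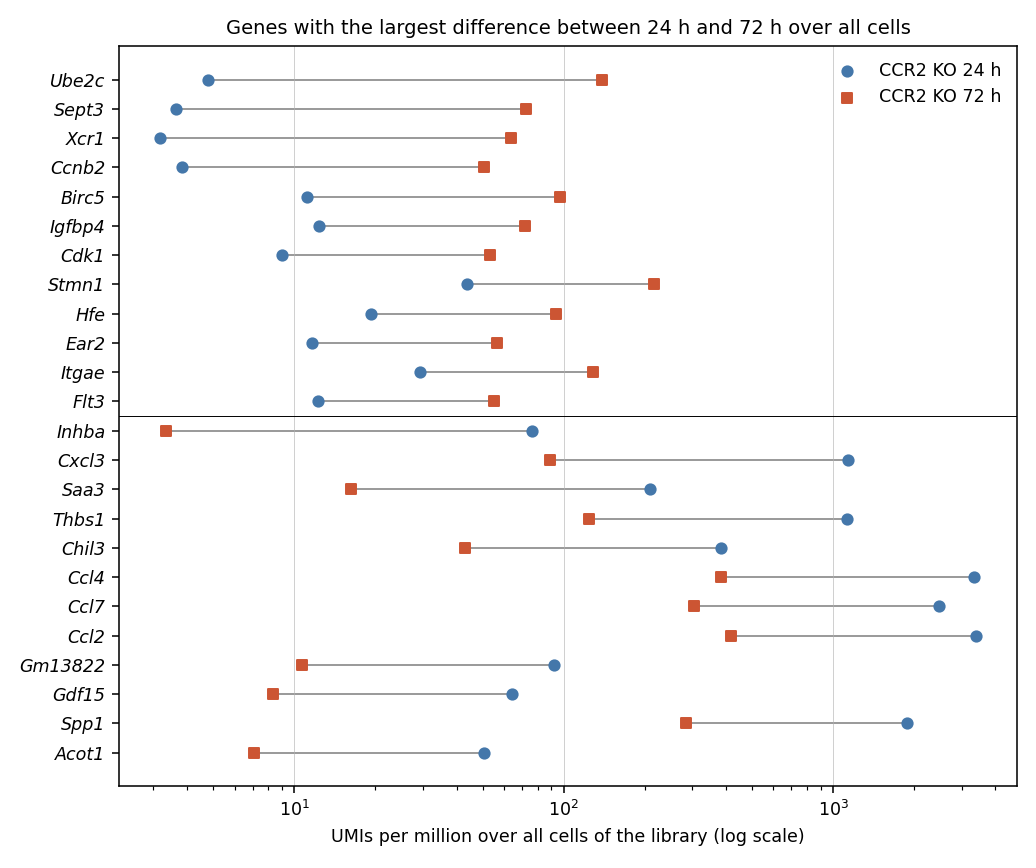
Levels over all cells (horizontal log axis, CPM) of the 12 genes with the largest log2 ratio upward and the 12 with the largest downward, at 24 h (blue circles) and 72 h (orange squares). Ube2c goes from 4.80 to 139 and Inhba from 76.0 to 3.33.

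Over all cells, genes induced by type I interferon were lower at 72 h almost without exception. Of 16 measured genes of the list, 15 were at least 2-fold lower and 0 at least 2-fold higher, against 4.81% of all genes lower, with a median log2 ratio of -1.73. Isg15, a ubiquitin-like modifier that is among the most strongly induced of these genes (minus strand of chromosome 4, 156199424 to 156200818), was at 851 CPM at 24 h and 162 CPM at 72 h, a log2 ratio of -2.38 (-2.47 to -2.31). The antiviral gene Rsad2 was at 262 and 63.9 CPM, Ifit3 at 129.6 and 34.1 CPM and the sensor gene Oasl2 at 437 and 138 CPM. The exception was Ifi47, an interferon-inducible GTPase gene, at 143 and 80.2 CPM.

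The promoters of 3 of these genes are shown because their transcripts moved together and interferon acts on such genes through a shared element. They are the 150 bases before the RefSeq transcript start on GRCm38.p6, written 5′ to 3′ on the strand of the gene, and the capitals mark matches to GAAA, any 2 bases and GAAA, the core of the interferon-stimulated response element, read on either strand.
Isg15 (chr4:156200819-156200968, minus strand): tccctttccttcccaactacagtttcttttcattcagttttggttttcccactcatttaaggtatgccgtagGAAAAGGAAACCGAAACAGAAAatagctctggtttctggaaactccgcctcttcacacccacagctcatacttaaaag
Rsad2 (chr12:26456453-26456602, minus strand): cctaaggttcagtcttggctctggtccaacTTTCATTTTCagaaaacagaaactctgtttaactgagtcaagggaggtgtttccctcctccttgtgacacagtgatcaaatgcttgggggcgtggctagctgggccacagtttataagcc
Ifit3 (chr19:34583379-34583528, plus strand): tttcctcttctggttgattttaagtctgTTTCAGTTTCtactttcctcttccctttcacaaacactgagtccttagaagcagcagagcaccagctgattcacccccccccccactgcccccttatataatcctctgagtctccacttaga
Isg15 holds 3 overlapping matches, whose first bases lie 78, 72 and 66 bases before the start. Rsad2 and Ifit3 hold 1 match each in the stretch shown, on the opposite strand, 120 and 122 bases before the start. In windows of 300 bases around the start, 7 of the 14 promoters of the list that were found in the reference table (50%) hold the letters, against 3.44% of 32851 promoters of all genes. A match is a description of the letters and says nothing of binding in these cells.

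The same genes were lower within the neutrophil-like class, which held most Isg15 UMIs at 24 h. There 4388 genes were at 20 CPM or more, 3.78% at least 2-fold higher and 7.47% at least 2-fold lower at 72 h. Of the 16 interferon response genes, 9 were at least 2-fold lower and 0 higher, with a median log2 ratio of -1.02 beside -0.11 for all genes of the class. Isg15 was at 1717 CPM at 24 h and 563 CPM at 72 h and Ifit2, which binds viral RNA, at 85.7 and 13.6 CPM, whereas Cmpk2, a nucleotide kinase gene, was at 87.4 and 70.5 CPM. The summed level of the list was lower in each of the 3 neutrophil-like clusters. It was 10408 CPM at 24 h and 6171 at 72 h in the cluster led by Ifit3b and Cxcr2, 5832 and 1982 in that led by Il1f9 and Csf1, and 5169 and 3567 in that led by Retnlg and Ly6g. In monocyte/Mφ-like cells 5 of 16 were at least 2-fold lower, against 4.81% of all genes of that class, with a median of -0.50, and in dendritic cell-like cells 3 of 8, against 3.04% of all genes, with -0.54. In the Siglecf-high class 3 of 10 were at least 2-fold higher and 2 lower, beside 20.5% and 5.35% of all genes of that class. The median was -0.48 beside 0.24 for all genes of the class. The higher ones had few counts at 24 h. Rsad2 went from 1 UMI (8.22 CPM) at 24 h to 77 UMIs (66.99 CPM) at 72 h, Ifit1 from 1 to 27 UMIs and Cmpk2 from 0 to 26 UMIs. Isg15 was at 304 and 161 CPM.

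Ligands of CXCR2, which call neutrophils into tissue, were lower at 72 h as a family. All 4 measured members were at least 2-fold lower over all cells, against 4.81% of all genes. Cxcl2 was at 7200.2 CPM at 24 h and 2125 CPM at 72 h, a log2 ratio of -1.76 (-1.78 to -1.74), and Cxcl3 at 1139 and 88.9 CPM, a log2 ratio of -3.66 (-3.78 to -3.58). Ppbp, the platelet basic protein gene, was at 88.7 and 1.46 CPM from 925 and 14 UMIs, and Cxcl1 was at 26.1 and 5.51 CPM. These genes lie within 1 stretch of chromosome 5, between 90768518 and 90905938. The promoters of the Cxcl genes are shown because the family moved together and all 3 hold the same letters in capitals, which are GGGA, any base and TTTCC, a form of the NF-kappaB site, searched on both strands.
Cxcl1 (chr5:90891095-90891244, plus strand): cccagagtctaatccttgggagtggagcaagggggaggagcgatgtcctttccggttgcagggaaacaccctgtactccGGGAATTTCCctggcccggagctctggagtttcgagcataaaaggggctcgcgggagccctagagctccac
Cxcl2 (chr5:90903749-90903898, plus strand): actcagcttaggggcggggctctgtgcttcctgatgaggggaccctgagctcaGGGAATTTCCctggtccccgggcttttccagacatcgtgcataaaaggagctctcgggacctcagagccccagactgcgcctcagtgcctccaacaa
Cxcl3 (chr5:90785951-90786100, plus strand): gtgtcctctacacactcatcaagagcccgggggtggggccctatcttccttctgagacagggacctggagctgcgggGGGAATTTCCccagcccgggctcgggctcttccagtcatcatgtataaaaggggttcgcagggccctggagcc
The first bases of the matches lie 71, 97 and 73 bases before the start, and all are on the strand of the gene. Of all 32851 promoters, 0.411% hold these letters in 300 bases, as do 3 of the 4 CXCR2 ligands (75.0%) but 0 of 2 monocyte-attracting and 0 of 9 other chemokine genes that were found in the table.

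Within classes, the difference was larger in monocyte/Mφ-like cells than in neutrophil-like cells. In neutrophil-like cells Cxcl2 was at 16513 CPM at 24 h and 10200.3 CPM at 72 h, a log2 ratio of -0.69, and Cxcl3 at 1902 and 583 CPM. Among monocyte/Mφ-like cells Cxcl2 was at 1664 and 256 CPM and Cxcl3 at 1113 and 11.4 CPM, the largest difference downward of the genes named in that class. Siglecf-high cells held Cxcl2 at 11051 and 7252 CPM.

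Of the 4 chemokine genes that attract monocytes through CCR2 and related receptors, 3 were at least 2-fold lower and 1 was higher over all cells. Of all genes, 4.81% were at least 2-fold lower and 5.62% higher. Ccl2 was at 3396 CPM at 24 h and 419 CPM at 72 h (log2 ratio -3.02), Ccl7 at 2479 and 303 CPM and Ccl12 at 787 and 138 CPM. Ccl8 went the other way, with 49.7 and 137 CPM, although the 4 genes lie within 1 stretch of chromosome 11, between 82035571 and 82116799. Nearly all of their UMIs came from monocyte/Mφ-like cells, where Ccl2 was at 9652 and 1884 CPM and Ccl8 at 142 and 649 CPM, a log2 ratio of 2.19 (2.05 to 2.34) for the latter. The same opposite directions were measured in the WT course, where the ratios in that class were -3.02 and 1.91.

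Of 13 other chemokine genes, 8 were at least 2-fold lower and 0 higher over all cells, against 4.81% and 5.62% of all genes. Ccl4, an inflammatory chemokine gene, was at 3319 CPM at 24 h and 383 CPM at 72 h, and within neutrophil-like cells at 6321 and 839 CPM, a log2 ratio of -2.91 (-3.01 to -2.82). Its neighbour Ccl3 was at 4329 and 1111 CPM in those cells. Ccl6, a chemokine gene of myeloid cells, was at 3276 and 856 CPM over all cells but at 2175 and 2213 CPM within the neutrophil-like class. Ccl22, which attracts regulatory and type 2 T cells, had the largest upward value of the list, 0.38.

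**Figure D3:**
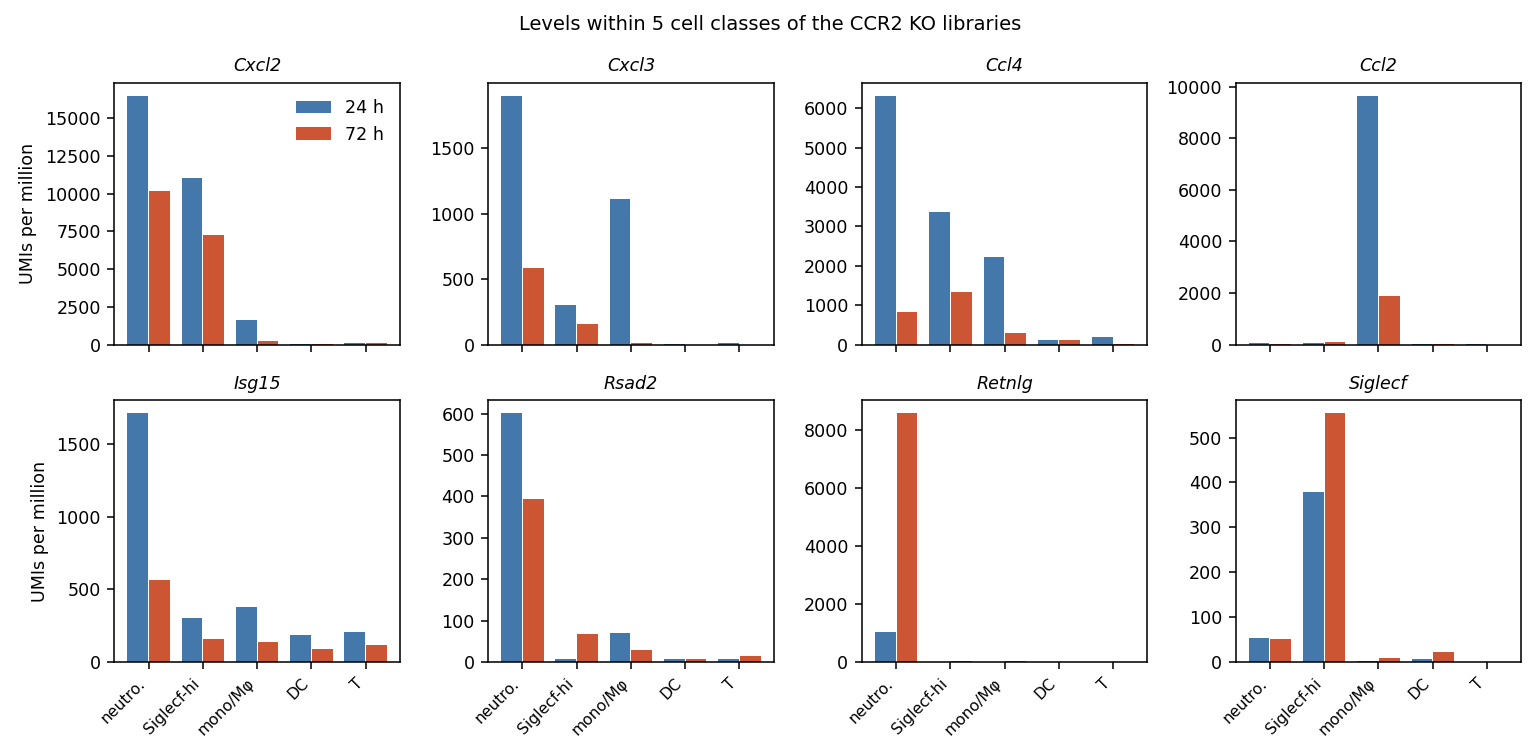
Levels (vertical axes, CPM of the class) of 8 genes in 5 classes of the CCR2 KO libraries at 24 h (blue) and 72 h (orange). Cxcl2 and Ccl4 are highest in neutrophil-like and Siglecf-high cells and Ccl2 in monocyte/Mφ-like cells, while Retnlg in neutrophil-like cells and Siglecf in Siglecf-high cells are higher at 72 h.

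Interleukin 1 family and inflammatory cytokine genes were lower too, 12 of 13 by at least 2-fold over all cells, against 4.81% of all genes. Il1b was at 8447 CPM at 24 h and 3683 CPM at 72 h, Il1rn, the gene of the interleukin 1 receptor antagonist, at 1536 and 349 CPM and Il1a at 126 and 24.6 CPM. Casp4, which encodes the caspase that senses bacterial lipopolysaccharide, was the member that stayed within 2-fold, at 111 and 63.8 CPM. Within neutrophil-like cells, where 7.47% of all genes were at least 2-fold lower, the family was split. Il1b was at 19088 CPM at 24 h and 13736 CPM at 72 h there, a log2 ratio of -0.47 (-0.50 to -0.45), and 5 of 13 members were at least 2-fold lower, among them Il1rn (3296 and 1496 CPM), Il23a (71.7 and 15.4 CPM) and Ptgs2, which encodes an enzyme of prostaglandin synthesis (2389.9 and 876 CPM). Per UMI of a neutrophil-like cell, Il1b thus differed less between the times than its antagonist did.

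**Figure D4:**
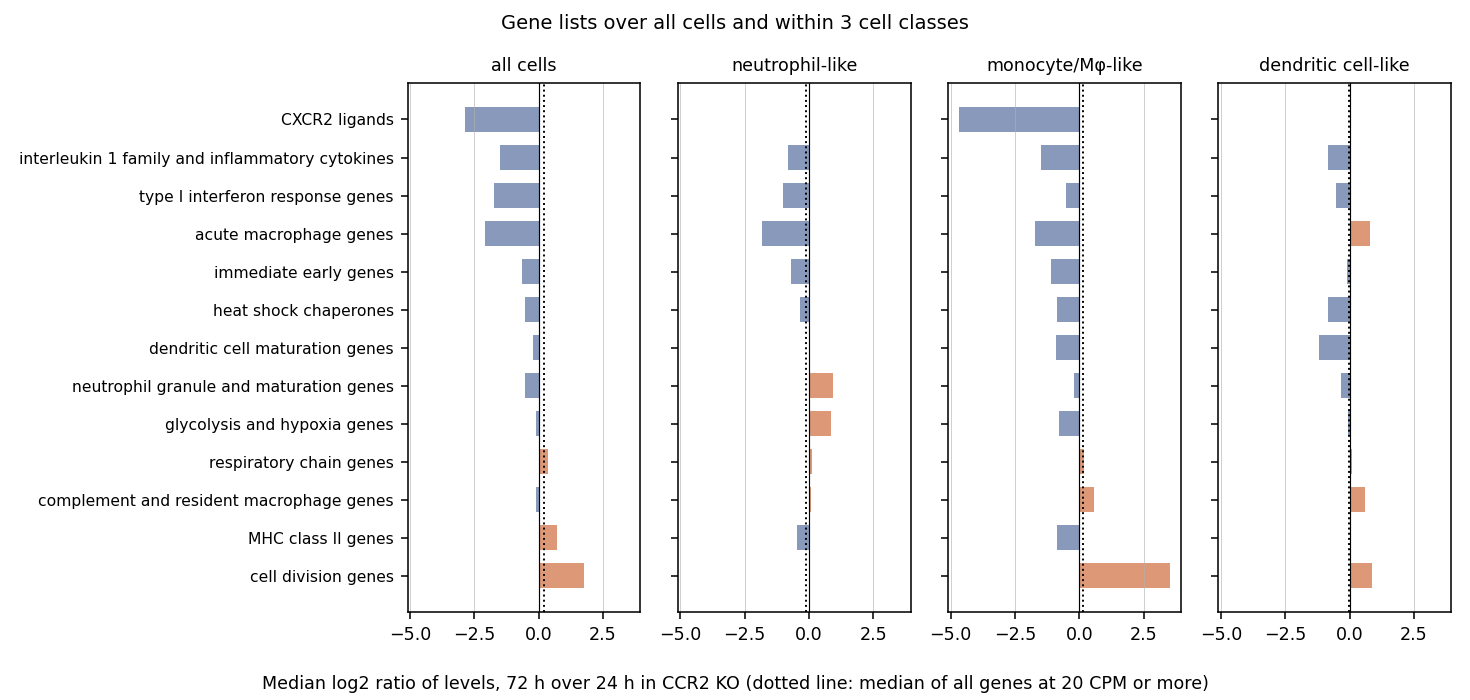
Median log2 ratio of levels, 72 h over 24 h, of 13 gene lists over all cells and within 3 classes of the CCR2 KO libraries (a bar is drawn for 4 or more measured genes, and the dotted line marks the median of all genes). Interferon response and interleukin 1 lists are negative in all 4 panels, while the granule list is negative over all cells and positive in neutrophil-like cells.

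Neutrophil-like cells at 72 h held more granule and maturation transcripts per UMI than those at 24 h. Of 23 measured genes of that list 11 were at least 2-fold higher and 1 at least 2-fold lower, against 3.78% and 7.47% of all genes of the class, with a median of 0.93, whereas over all cells the median was -0.54. Retnlg, which encodes a resistin-like secreted protein (chromosome 16, 48872621 to 48874496, plus strand), was at 1034 CPM at 24 h and 8596 CPM at 72 h, a log2 ratio of 3.05 (3.003 to 3.11). Ly6g, the surface marker by which mouse neutrophils are stained, was at 49.7 and 311 CPM, S100a8 at 28388 and 81000.1 CPM and the collagenase gene Mmp8 at 107 and 348 CPM. The member on the lower side was Ltf, which encodes the granule protein lactoferrin, at 21.3 and 5.42 CPM. The receptors did not share the direction, with Cxcr2 at 1156 and 1133 CPM and Csf3r at 1677 and 1388 CPM. None of these values include the Siglecf-high class, which was kept apart after the data had been seen. In that class S100a8 was at 12892 and 8472 CPM, and levels over both classes joined were not computed.

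In thinned cells the picture was the same in terms of cells. Retnlg was seen in 204 of 1274 cells (16.01%, 14.04 to 18.1) of the neutrophil-like class at 24 h and in 118 of 212 cells (55.7%, 48.7 to 62.5) at 72 h, or 24.4% and 64.5% without thinning. Ly6g was seen in 30 of 1274 cells (2.35%, 1.59 to 3.34) and 30 of 212 cells (14.2%, 9.76 to 19.6). In the dendritic cell-like class, which should lack it, Ly6g was seen in 0 of 63 cells (0%, 0 to 5.69) and 0 of 137 cells (0%, 0 to 2.66). Median depths before thinning were 2969 and 4817 UMIs in neutrophil-like cells and 20485 and 26239 in dendritic cell-like cells.

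Stefin A genes, a tandem family of cysteine protease inhibitors on chromosome 16 between 36156811 and 36408457, were among the largest differences in neutrophil-like cells. Stfa1 was at 19.1 and 343 CPM, Stfa2l1 at 367 and 1887 CPM, Gm5483 at 761 and 4415 CPM and BC100530 at 2.69 and 204 CPM. The copies are close to identical, so that the split of reads between them is uncertain. Part of these differences followed the clusters inside the class. The cluster led by Retnlg, BC100530 and Ly6g held 130 of 1291 cells (10.1%) at 24 h and 85 of 217 (39.2%) at 72 h. The summed level of the granule list was 223307 and 282329 CPM within it, 48152 and 111380.0 in the cluster led by Il1f9 and 71725 and 76098 in the cluster led by Ifit3b, so that it was higher at 72 h in all 3.

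Among the genes with the largest downward values in neutrophil-like cells were Acot1 (121 and 6.33 CPM), the B cell receptor signalling gene Klhl6 (177 and 18.98 CPM), Hbegf, which encodes a ligand of the EGF receptor (117 and 16.3 CPM), and the interferon-inducible gene Ifi207 (241 and 46.1 CPM). Acot1 was seen in 274 of 1291 cells at 24 h and in 5 of 217 at 72 h. Genes listed for neutrophil ageing and retention in tissue leaned the same way. Of these, 5 of 20 were at least 2-fold lower and 0 higher, against 7.47% and 3.78% of all genes of the class. The lower ones included Cxcr4, the receptor that returns aged neutrophils to the marrow, at 910.2 and 411 CPM, and the tetraspanin gene Cd63 at 899.7 and 268 CPM. These values leave out the Siglecf-high class, which was kept apart after the data had been seen and was far larger at 72 h. In that class Cxcr4 was at 1299 and 1042 CPM and Cd63 at 1102 and 449 CPM. Levels over both classes joined were not computed, so the result may depend on the split.

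Glycolysis and hypoxia genes were higher in neutrophil-like cells, 6 of 16 by at least 2-fold and 0 lower, against 3.78% and 7.47% of all genes of the class. Their median was 0.85 beside -0.11 for all genes. Pgk1 was at 140.5 CPM at 24 h and 418 CPM at 72 h, Gapdh at 304 and 788 CPM, Ldha, the gene of lactate dehydrogenase A, at 185 and 456 CPM and Aldoa at 426 and 942 CPM. Hif1a, the hypoxia-inducible factor gene itself, was at 236 and 283 CPM, and Hk2, the gene of hexokinase 2, at 33.5 and 18.1 CPM. In the Siglecf-high class 5 of 16 were at least 2-fold higher and 1 lower, beside 20.5% and 5.35% of all genes of that class, which is close to the background. The list had medians of -0.79 in monocyte/Mφ-like cells and -0.07 in dendritic cell-like cells. In the WT course its median in neutrophil-like cells was 0.94.

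Monocyte/Mφ-like cells were spread over different clusters at the 2 times. At 24 h the largest clusters were that led by Ppbp, Fabp4 and Spp1 with 100 of 219 cells, that led by Mmp13, Lilra5 and Cx3cr1 with 53 and that led by Chil3 and Vcan, monocyte genes, with 52. At 72 h these held 11, 69 and 16 of 146 cells, and a cluster led by Cxcl13 and Prg4 went from 11 to 38. A cluster led by Apoe, Igf1 and Trem2 held 3 and 12 cells. Values over the class therefore mix the difference in clusters with differences inside them.

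Of 6451 genes measured in monocyte/Mφ-like cells, 640 (9.92%) were at least 2-fold higher and 310 (4.81%) at least 2-fold lower at 72 h. With TMM scaling the numbers were 404 and 514, so that higher genes were 67.4% of called genes in the first case and 44.0% in the second. Acute genes of recruited Mφs were on the lower side, 8 of 14 by at least 2-fold with a median of -1.73. Fabp5, a fatty acid-binding protein gene, was at 3399 CPM at 24 h and 302 CPM at 72 h and Spp1 at 4934 and 757 CPM. The cystine transporter gene Slc7a11 was at 184 and 10.4 CPM and Ass1, an enzyme gene of arginine synthesis, at 226 and 19.3 CPM. Hmox1, which encodes haem oxygenase 1, was at 485 and 624 CPM and so did not follow them. In the cluster led by Mmp13 alone, which held most cells at 72 h, the ratios of Fabp5, Slc7a11 and Inhba turned to 0.21, 1.69 and 0.93. The median of the list there was 0.16, from 7 measured genes. Inhba and Slc7a11 rested on few counts, with 1 and 21 UMIs in the whole class at 72 h. The summed level of the list was still lower in the cluster led by Mmp13, with 5916 CPM at 24 h and 3840 at 72 h. It was also lower in those led by Chil3, Ppbp and Cxcl13, and higher in that led by Apoe (3163 from 3 cells and 4728 from 12).

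Resident Mφ genes were unevenly higher over the class as a whole, though not in most of its clusters. Of 17 measured complement and resident Mφ genes 6 were at least 2-fold higher and 0 lower, against 9.92% and 4.81% of all genes of the class. The median of the list was 0.58, with 0.14 for all genes, 1.75 for the list in WT and -0.40 in the cluster led by Mmp13 alone. Selenop, a selenium carrier gene, was at 259.7 CPM at 24 h and 1363 CPM at 72 h, the mannose receptor gene Mrc1 (CD206) at 413 and 1058 CPM, the folate receptor gene Folr2 at 31.1 and 105 CPM and the hyaluronan receptor gene Lyve1 at 3.30 and 36.6 CPM. The complement gene C1qa stayed within 2-fold, at 2260.5 and 3037 CPM, as did Apoe, the lipid carrier, at 3659 and 3976 CPM. In thinned cells Mrc1 was seen in 55 of 214 cells (25.7%, 19.99 to 32.1) at 24 h and 70 of 128 cells (54.7%, 45.7 to 63.5) at 72 h. By cluster, the summed list was 8786 CPM at 24 h and 2516 at 72 h in that led by Chil3. It was 31482 and 21895 in that led by Mmp13 and 8777 and 7370 in that led by Cxcl13. Higher sums at 72 h were found in that led by Ppbp (6006 and 10056) and that led by Apoe (7629 from 3 cells and 20024 from 12).

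Antigen presentation genes were lower in KO Mφs at 72 h, though most by less than 2-fold. In this class the median mitochondrial share per cell went from 3.54% to 5.87% in KO and from 3.98% to 4.31% in WT. A limit of 5% mitochondrial UMIs per cell was among the alternatives. Beyond that, the part of this share in the result was not tested. The MHC class II genes H2-Aa, H2-Ab1 and H2-Eb1, which encode the chains that display peptides to CD4 T cells, were at 3032, 2981 and 2587 CPM at 24 h and at 1495, 1626 and 1495 CPM at 72 h. Of the 7 measured genes, 2 were at least 2-fold lower and 0 higher, against 4.81% and 9.92% of all genes of the class. Ciita, the regulator of the others, was at 39.6 and 54.4 CPM. Cluster by cluster, the summed level of the 8 genes was 30856 CPM at 24 h and 6797 at 72 h in the cluster led by Chil3, 10153 and 3495 in that led by Ppbp and 27071 and 11952 in that led by Mmp13. In the cluster led by Cxcl13 it was low at both times, with 2254 and 2726 CPM. The cluster led by Apoe went the other way, with 512 CPM from 3 cells and 15243 CPM from 12 cells. In WT the sums of the first 3 of these clusters were higher at 72 h than at 24 h, for example 14049 and 54082 CPM in that led by Mmp13. Dendritic cell-like cells of the KO libraries kept their level, with Cd74, the MHC class II chaperone gene, at 19703 CPM at 24 h and 20211 CPM at 72 h.

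**Figure D5:**
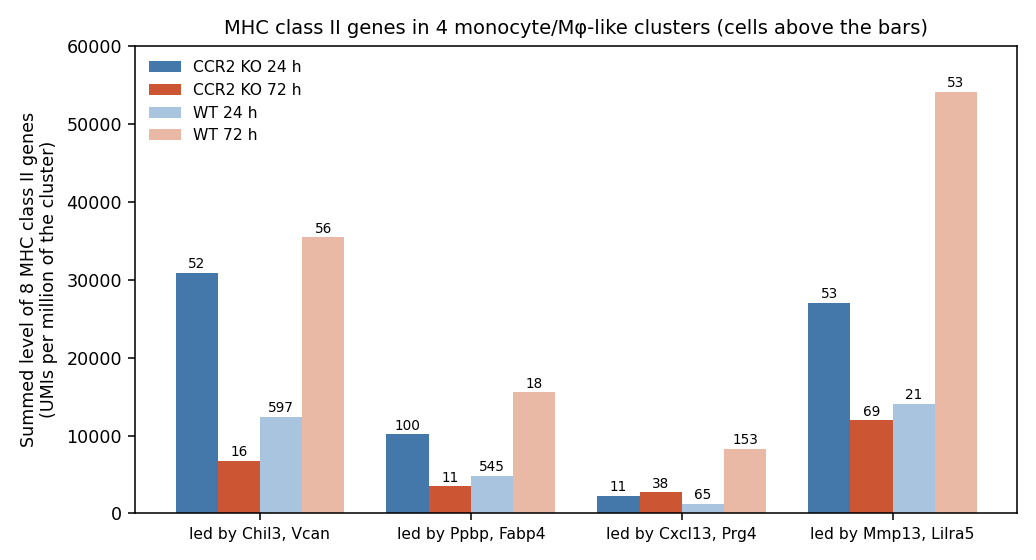
Summed level of the 8 MHC class II genes (vertical axis, CPM) in the 4 monocyte/Mφ-like clusters with 10 or more cells in both KO libraries, with the number of cells above each bar. KO bars are lower at 72 h than at 24 h in 3 clusters, from 30856 to 6797 in the cluster led by Chil3, while the WT bars are higher at 72 h in all 4.

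Cell division genes were higher at 72 h in several classes. Over all cells 15 of 18 were at least 2-fold higher at 72 h, against 5.62% of all genes. In monocyte/Mφ-like cells it was 15 of 18, against 9.92% of all genes, with a median of 3.53. In dendritic cell-like cells it was 9 of 18, against 3.41%, with a median of 0.89. Within the monocyte/Mφ-like class the topoisomerase gene Top2a was at 7.15 and 121 CPM, Mki67, which encodes the proliferation marker Ki-67, at 6.33 and 107 CPM, Pclaf, a partner of the replication clamp, at 8.80 and 202 CPM and Stmn1 at 27.2 and 381 CPM. Birc5 was at 0.550 CPM from 2 UMIs and at 153 CPM from 310 UMIs in 53 cells. The summed list was 2506 and 5705 CPM in the cluster led by Mmp13 and 1329.9 and 1203 in that led by Chil3, where the difference was absent.

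Counted as cells, with at least 3 UMIs of 10 core division genes after thinning to 1000 UMIs, dividing cells were 7 of 1746 (0.401%, 0.161 to 0.824) at 24 h and 52 of 994 (5.23%, 3.93 to 6.80) at 72 h. Monocyte/Mφ-like dividing cells were 1 of 214 (0.467%, 0.0118 to 2.58) and 22 of 128 (17.2%, 11.1 to 24.9), compared with 14 of 827 (1.69%, 0.929 to 2.82) in WT at 72 h. In dendritic cell-like cells they were 2 of 63 (3.17%, 0.387 to 11.002) and 24 of 137 (17.5%, 11.6 to 24.9), and in T cell-like cells 1 of 47 (2.13%, 0.0539 to 11.3) and 4 of 77 (5.19%, 1.43 to 12.8). Neutrophil-like cells, which do not divide once mature, give the background of this count, with 0 of 1274 (0%, 0 to 0.289) and 0 of 212 (0%, 0 to 1.72).

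Dendritic cell-like cells differed in their subtypes between the times. The cluster led by Cd209a, a lectin gene of monocyte-derived and type 2 conventional dendritic cells, held 39 of 64 cells at 24 h and 73 of 137 at 72 h. The cluster led by Xcr1 and Clec9a, markers of cross-presenting cells, held 1 cell at 24 h and 32 at 72 h, and that led by Fscn1 and Ccr7, genes of migrating mature cells, 24 and 32. Within the class, 3.41% of 6246 genes were at least 2-fold higher and 3.04% at least 2-fold lower. The higher genes included Xcr1 itself (20.3 and 159 CPM) and the double-stranded RNA receptor gene Tlr3 (20.3 and 103 CPM), both genes that lead the Xcr1 cluster, as well as the endosomal GTPase gene Rab7b (20.3 and 102 CPM). Ube2c was at 7.98 and 237 CPM, seen in 6 and 42 cells.

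Maturation genes of dendritic cells were lower at 72 h, with a median of -1.20. By at least 2-fold, 8 of 11 were lower and 0 higher, against 3.04% and 3.41% of all genes of the class. Ccl17, a chemokine gene that attracts CCR4-bearing T cells, was at 2489.8 CPM at 24 h and 629.8 CPM at 72 h, a log2 ratio of -1.98 (-2.06 to -1.91). Ccr7, the receptor for migration to lymph nodes, was at 243 and 74.2 CPM, the costimulatory gene Cd80 at 134 and 39.97 CPM and Cd40 at 83.4 and 31.1 CPM, whereas Cd86 was at 136 and 107 CPM. By cluster, the summed list was 7385 and 4109 CPM in the cluster led by Fscn1 and 2208 and 991 CPM in that led by Cd209a. In the cluster led by Xcr1 it was higher at 72 h, with 281 CPM from 1 cell and 452 CPM from 32 cells. Cd274, which encodes the checkpoint ligand PD-L1, was at 147 and 33.4 CPM, the nuclear receptor gene Nr4a3 at 173 and 34.2 CPM and the cell cycle inhibitor gene Cdkn1a at 412 and 96.7 CPM. Basophil genes were present in the class at 24 h, with Cpa3 at 147 and 0.784 CPM and Mcpt8 at 67.4 and 6.79 CPM. They came from few cells: 2 of 64 and 3 of 137 held 3 or more UMIs of such genes, and without them the median of the maturation list was -1.22.

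T cell-like cells held fewer cytotoxic transcripts at 72 h. Of 6524 genes measured in them, 4.94% were at least 2-fold higher and 5.73% at least 2-fold lower, and of 10 cytotoxic effector genes 6 were at least 2-fold lower and 0 higher. The granule protease gene Gzmb (minus strand of chromosome 14, 56258838 to 56262260) was at 2913 CPM at 24 h and 301 CPM at 72 h, a log2 ratio of -3.27 (-3.49 to -3.06), the chemokine gene Ccl5 at 6318 and 1869 CPM and Nkg7, a gene of cytotoxic granules, at 1438 and 464 CPM. Gzmb was seen in 17 of 47 cells (36.2%, 22.7 to 51.5) at 24 h and 12 of 77 cells (15.6%, 8.32 to 25.6) at 72 h after thinning. The coreceptor gene Cd8a was at 431 and 57.3 CPM and the gamma chain gene Tcrg-C4 at 206 and 44.99 CPM, while Cd4 was at 153 and 168 CPM and Trac, the alpha chain constant gene, at 929 and 1198 CPM. On the higher side stood the gut-homing receptor gene Ccr9 (85.7 and 319 CPM) and S100a4 (482 and 1220.2 CPM), a gene of effector and memory T cells. Of 8 type 2 and type 17 genes, 3 were at least 2-fold higher, among them the epithelial growth factor gene Areg, with 24.1 and 109 CPM. After thinning, Areg was seen in 1 of 47 cells (2.13%, 0.0539 to 11.3) and 5 of 77 cells (6.49%, 2.14 to 14.5), and these intervals overlapped. The delta chain gene Trdc was at 519 and 160 CPM, and the cytotoxic gene Gzma at 3023 and 38.2 CPM. The class held 47 and 77 cells. A different mix of CD4, CD8 and gamma-delta T cells cannot be told apart from a difference within any of them.

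Set beside WT, the course of the KO infiltrate differed in granulocytes and Mφs, and by fewer points in T cell-like and B cell-like cells. WT cells were deeper, with medians of 12859 UMIs per cell at 24 h and 12427 at 72 h. The difference in the share of neutrophil-like cells from 24 h to 72 h was -52.0 percentage points in KO and -11.4 in WT, a difference of -40.6 (-44.4 to -36.6), and that of the Siglecf-high class 32.7 and 7.58, a difference of 25.2 (21.8 to 28.5). With both classes counted together, an alternative chosen after seeing the data, it was -19.3 points in KO and -3.86 in WT, a difference of -15.4 (-19.9 to -10.9). Monocyte/Mφ-like cells differed by 1.65 points in KO and -12.2 in WT, a difference of 13.9 (9.67 to 18.1). The KO value turned negative with a stricter limit on mitochondrial UMIs per cell and with each library clustered alone. WT values under these alternatives are not given here, so the size of the monocyte/Mφ-like difference between KO and WT may depend on the processing. The gain in dendritic cell-like cells was close to that of WT, 9.54 and 9.90 points, with a difference of -0.362 (-3.40 to 2.73). Among gene groups, cell division genes in monocyte/Mφ-like cells had a median of 3.53 in KO and 1.25 in WT, and granule genes in neutrophil-like cells 0.93 and -0.05. The interferon list in neutrophil-like cells was lower in both, with -1.02 and -1.48. These are differences between 4 libraries, and a library effect cannot be told apart from an effect of genotype.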

How the data were processed

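Leukocytes sorted for CD45 from the muscularis of CCR2 KO and WT mice were profiled with 10x Genomics 3' chemistry, in 4 libraries, 1 per genotype and time. Per the labels and the study's methods, the authors made the deposited UMI counts with Cell Ranger 3.0.2 on GRCm38 (mm10) and filtered cells with Seurat, removing those under 200 genes or above 10% mitochondrial UMIs. Whether further alignment settings applied is not given in the sources used here.

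From these counts, cells with at least 8 UMIs and 0.1% of non-immune marker UMIs, no Ptprc and at most 3 Lyz2 UMIs were set aside. The cells of all 4 libraries were scaled to 10000 UMIs and clustered together with scanpy 1.11.5 (2000 variable genes, 30 principal components, 20 neighbours, Leiden resolution 1 with leidenalg 0.10.2, seed 1), leaving macrophage subset, MHC class II, C1q, Ccr2 and cell division genes out of the variable genes. A cluster was named "X-like" from marker lists (score of at least 0.6 and at least 3 markers at 20 CPM), and names and shares may differ from those of the study because they were rebuilt. The Siglecf-high cluster was kept apart after the data had been seen. The members and gene lists were chosen with earlier results of these data known.

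Levels were sums of UMIs over the cells of a library or class, per 1000000 UMIs (CPM). Ratios were log2 of (level + 1) at 72 h over (level + 1) at 24 h, which understates the difference for low genes, and genes at 20 CPM or more were counted at a limit of 2-fold. Named genes were the 12 in each direction over all cells with at least 50 CPM and the 5 in each direction within a class with at least 100 CPM, passing over genes with above 25% of their UMIs in 1 cell, and from each list the 2 members with most UMIs and those with the largest values up and down. Some list members named beyond these, for their role, were chosen after their values were seen. The Siglecf-high and T cell-like classes, under the minimum of 50 cells, were added after the data had been seen. Intervals were Clopper-Pearson for shares, Newcombe for their differences, exact Poisson for levels and conditional binomial, without the 1 CPM added, for ratios (scipy 1.17.1). Cells were thinned to 1000 UMIs before counting those in which a gene was seen. A doublet caller (Scrublet) called 1 cell at 24 h and 0 at 72 h in the KO libraries and is taken not to have worked, so no doublets were removed. The KO libraries held 10436694 and 9736725 UMIs. The level and ratio code was tested on simulated data. Alternatives included TMM scaling, no minimum level, a pseudocount of 5 CPM, cells with at most 5% mitochondrial UMIs, resolution 2, clustering each library alone, and equal weight per cell. Gene positions are those of GENCODE on GRCm38.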

Additional observations from a re-analysis of the deposited data

Results flagged for a closer look

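Several genes and lists stood out because their log2 ratio of 72 h over 24 h pointed one way in the CCR2 KO pair of libraries and the other way in the WT pair. With 1 library per group the difference between the courses was not tested.

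In monocyte/Mφ-like cells the MHC class II list had a median of -0.87 in KO and 1.91 in WT, with H2-Aa at -1.02 and 1.97 and its chaperone gene Cd74 at -1.01 and 1.70. The heat shock gene Hspa1b was at -2.60 in KO and 1.93 in WT in the same class, and the median of the immediate early list, genes switched on within minutes by stimulation or by tissue handling, was -1.11 and 0.59.

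In dendritic cell-like cells the chemokine gene Ccl22 was at -1.19 in KO and 1.93 in WT, the tetraspanin gene Cd63 at -1.48 and 2.47 and the nuclear receptor gene Nr4a3 at -2.31 and 1.84. In WT at 24 h these genes rested on only 35, 20 and 15 UMIs from 66 cells. In neutrophil-like cells the growth factor gene Hbegf was at -2.77 and 1.52, and the tissue repair list had a median of -0.61 and 0.85. The WT value of Hbegf came from low levels, 9.21 CPM at 24 h and 28.3 CPM at 72 h, in 301 and 86 cells. Over all cells the smooth muscle actin gene Acta2, which is no leukocyte gene, was at -1.04 in KO and 1.35 in WT, the heat shock gene Hspa1a at -1.06 and 1.39, and the immediate early list at -0.65 and 0.56. The value of Acta2 depends on the removal of cells led by non-immune genes, all from the KO libraries. Some of these at 72 h held Acta2, up to 20 UMIs in a cell. Its ratio with them kept was not computed.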

How the results depend on the processing

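No paired analysis was possible because each group held 1 library and the labels gave no replicate numbers that pair libraries. No library was left out, since its group would then be empty.

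Of the values that answer a comparison, 86 were close to the reported value under an alternative, 22 moved and 1 turned its direction, and of the values for single genes and lists 454 were close, 128 moved and 7 turned. Clustering every library by itself, the difference in share, in percentage points, was -58.1 for neutrophil-like, 39.0 for Siglecf-high (0 cells at 24 h), -7.56 for monocyte/Mφ-like, -0.563 for NK cell-like and 3.40 for innate lymphoid cell-like cells. With at most 5% mitochondrial UMIs it was 43.3 for Siglecf-high, -4.91 for monocyte/Mφ-like and 1.53 for T cell-like cells. Thinning before clustering gave 2.004 for T cell-like and 7.71 for NK cell-like cells. With Siglecf-high cells counted as neutrophils, an alternative chosen after seeing the data, the neutrophil difference was -19.3. With every KO library by itself, some clusters got no name and so count in no class. At 72 h these included 101 cells led by Gpx3 and Vcam1, with Cx3cr1 and Birc5 among the leading genes. At 24 h they included 65 cells led by Gal, Cpa3 and Ccl17. A cluster of 95 cells at 24 h led by Gzmb and Gzma, with Trdc and Cd8a, was named NK cell-like there. The causes were not tested.

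TMM scaling gave 171 higher and 536 lower genes over all cells, and 404 and 514 in monocyte/Mφ-like cells. With no minimum level, 1015 genes were higher over all cells, and the higher and lower genes numbered 705 and 1066 in neutrophil-like, 1738 and 645 in monocyte/Mφ-like and 1076 and 582 in dendritic cell-like cells, where more genes of few UMIs were counted. With each cell weighted equally, 1027 genes were higher over all cells.

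In alternatives chosen after seeing the data, the log2 ratio of Saa3 over all cells was 0.031 with cells led by non-immune genes kept. In the monocyte/Mφ-like cluster with most cells at 72 h alone, Inhba was at 0.93, Slc7a11 at 1.69, Fabp5 at 0.21, the acute list at 0.16 and the complement and resident list at -0.40. The latter list in dendritic cell-like cells was at -0.090 when the KO libraries were clustered without WT. The value of Inhba rested on 1 UMI in the whole monocyte/Mφ-like class at 72 h. Classes of under 50 cells and genes near 20 CPM were limited by depth.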

Other observations

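Immediate early genes, which stimulation or tissue handling switches on within minutes, leaned lower over all KO cells at 72 h. Of 12 genes, 3 were at least 2-fold lower, against 4.81% of all genes, with a median of -0.65. Junb, a subunit of the AP-1 factor, was at 2549.9 CPM at 24 h and 1654 CPM at 72 h, and Ier3, a stress response gene, at 2404 and 464 CPM. In monocyte/Mφ-like cells 7 of 12 were at least 2-fold lower, against 4.81% of all genes of the class. In neutrophil-like cells it was 1 of 12, against 7.47%. Heat shock chaperone genes stayed mostly within 2-fold, with 1 of 10 lower over all cells, 3 of 10 lower in monocyte/Mφ-like cells and a median of -0.52 over all cells. The share of all genes at least 2-fold lower was 4.81% over all cells and also in monocyte/Mφ-like cells. Hspa8, the constitutive chaperone gene, was at 2466 and 1818 CPM.

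Of 8 tissue repair growth factor genes measured over all cells, 5 were at least 2-fold lower and 0 higher, against 4.81% and 5.62% of all genes. Osm, which encodes oncostatin M, was at 531 CPM at 24 h and 118 CPM at 72 h, and Tgfb1 was at 339 and 232 CPM. In monocyte/Mφ-like cells the vessel growth factor gene Vegfa was at 29.99 and 1.98 CPM and Igf1 at 27.2 and 64.3 CPM, while in the Siglecf-high class Vegfa was at 32.9 and 90.5 CPM. The respiratory chain list stayed within 2-fold for all 14 genes, with a median of 0.36 over all cells beside 0.21 for all genes. Of the eosinophil genes, 2 passed 20 CPM over all cells, Ear2 and Siglecf, and both were higher at 72 h. Ear2 was at 123 CPM in dendritic cell-like cells at 72 h, so that its value over all cells does not mark eosinophils. Of cytotoxic genes, 2 of 7 were lower over all cells and 0 higher. Of type 2 and type 17 lymphocyte genes, 2 of 4 were higher and 0 lower. Non-immune genes numbered 3 at 20 CPM or more, with 1 lower. Beside these counts, 5.62% of all genes were at least 2-fold higher and 4.81% at least 2-fold lower over all cells.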
